A study of Mus musculus with 12 samples.

Results

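The genes described here were listed at or near 0 in liver or duodenum of vehicle-treated (Veh) mice and were expressed in the same tissue of mice given corticosterone (CORT). They were chosen by their own values: a gene entered when its highest Veh value was 0.5 TPM or less and its lowest CORT value was 1 TPM or more in a tissue. TPM, a transcript count scaled to the library total and to transcript length, is a relative abundance. Of the 55416 listed genes, 34 met this rule in the liver (0.0614%) and 16 in the duodenum (0.0289%). Pnmt met it in both tissues, so the union held 49 genes. The overlap of 1 gene was 2.94% of the genes chosen in liver and 6.25% of those chosen in duodenum. In the tissue that chose a gene its values are given as a description, with no test. Tests are given where the rule did not use the values, apart from some later counts that include Pnmt. Neighbouring genes that overlap a member may share reads with it.

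Male C57BL6/J mice, 8 weeks old at the start, received CORT (40 mg/kg) or vehicle subcutaneously each day for 8 weeks. RNA-seq libraries came from liver and from a gut sample that the labels call intestine and the paper's methods call duodenum. There were 3 CORT and 3 Veh libraries per tissue, 12 in all. The labels name the 3 of a group as biological replicates and do not say whether a mouse gave both tissues. The TPM values of a library summed to between 983327 and 997319, and because read depth is not given by such values, counting error could not be estimated. Alb, the hepatocyte gene for serum albumin, was between 32823 and 59476 TPM in the liver libraries and at 0.39 TPM or less in the duodenum. Vil1, a brush border gene, was between 839 and 1436 TPM in the duodenum and at 0.34 TPM or less in the liver. In duodenum, 9 pancreatic acinar genes summed to 21867 and 25532 TPM in Veh3 and Veh2, against 85.3 TPM in Veh1 and between 16.4 and 28.3 TPM in the CORT libraries.

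Corticosterone is the main glucocorticoid of rodents. It enters cells and binds the glucocorticoid receptor, which moves to the nucleus and binds DNA at response elements, palindromes of a pair of short sites around a spacer. The receptor raises the transcription of genes such as Fkbp5 and Tsc22d3, and liver and gut epithelium are both established targets of the hormone.

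The promoter sequences of the members were searched for that element, which was spelled GNACANNNTGTNC and reads the same on both strands. The sequences are RefSeq windows on GRCm38.p6 from 250 bases before to 50 bases after each start. Symbols of 30 of the 49 members had a window, 20 of those chosen in liver and 10 of those chosen in duodenum. The element was present for 3 of the 30 members (10%), against 145 of all 27025 gene symbols in the table (0.537%). All 3 were chosen in liver. The shorter 6-letter site AGAACA, searched on both strands as AGAACA or TGTTCT and able to overlap the longer element, was present for 12 of the 30 members (40%) and for 21.3% of all symbols. A match is a description of the letters and not a binding site. The 150 bases before the start are shown for the 3 genes with the element, which is in capitals, and for Kcnmb2, the liver member with the highest lowest-CORT value, whose window held neither motif.
Fam107a, minus strand, chr14:8309780-8309929, 1 of 3 windows of this gene: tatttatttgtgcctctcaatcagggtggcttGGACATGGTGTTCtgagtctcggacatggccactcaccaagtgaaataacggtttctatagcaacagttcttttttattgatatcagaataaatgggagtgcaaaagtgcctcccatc
Gm30173, plus strand, chr3:52516814-52516963: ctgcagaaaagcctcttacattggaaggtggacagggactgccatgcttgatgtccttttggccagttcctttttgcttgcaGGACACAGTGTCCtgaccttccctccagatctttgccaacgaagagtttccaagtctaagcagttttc
Serpina3c, minus strand, chr12:104153873-104154022: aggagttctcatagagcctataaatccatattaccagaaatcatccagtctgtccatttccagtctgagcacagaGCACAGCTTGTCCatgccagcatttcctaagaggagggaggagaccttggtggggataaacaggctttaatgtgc
Kcnmb2, plus strand, chr3:31902553-31902702: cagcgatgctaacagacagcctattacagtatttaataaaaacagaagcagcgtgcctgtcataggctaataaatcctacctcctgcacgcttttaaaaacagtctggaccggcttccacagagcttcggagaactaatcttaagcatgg
The element began 118 bases before the start in Fam107a, 75 bases before it in Serpina3c and 68 bases before it in Gm30173. A second window of Fam107a overlapped the first and held the same site.

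By class, taken from GENCODE vM21 through the gene identifiers, 31 of the 49 members were protein-coding, 9 were long non-coding RNAs, 4 were pseudogenes, 3 carried the class "to be experimentally checked" and 1 was a T cell receptor segment. The remaining member, ENSMUSG00002075076, has no symbol in the table and no entry in that annotation. By name, 19 members had only a predicted name or none. They comprised 14 Gm genes, 3 Rik genes, 1 clone name (BB123696) and the gene without a symbol. In the liver, 14 of the 34 members (41.2%) were not protein-coding, while this held for 5.34% of the 10289 genes with at least 1 TPM in all 3 CORT livers. In the duodenum, 4 of the 16 members (25.0%) were not protein-coding, against 6.24% of 12037 such genes. The opposite rule, with Veh and CORT exchanged, took 11 genes in liver, 6 of them protein-coding. In duodenum it took 24 genes, 16 of them protein-coding, with pancreatic enzyme genes that were high in Veh2 and Veh3 among these. A large share outside the protein-coding class was thus not particular to the members. The median of the mean CORT levels was 3.84 TPM for protein-coding members and 2.53 TPM for the others in liver, and 2.16 and 7.05 TPM in duodenum.

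In most members the CORT level was low. Mean CORT levels ran from 1.41 to 58.4 TPM over the 34 liver members, with a median of 3.42 TPM, and from 1.19 to 18.4 TPM over the 16 duodenum members, with a median of 2.52 TPM. Only 6 liver members and 4 duodenum members reached 5 TPM in all 3 CORT libraries. At the lower end, 6 liver members and 1 duodenum member were listed at 0 in all 3 Veh libraries, while 13 and 8 were above 0 in all 3. In bulk tissue, fewer cells that express a gene and less RNA per cell cannot be told apart.

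**Figure D1:**
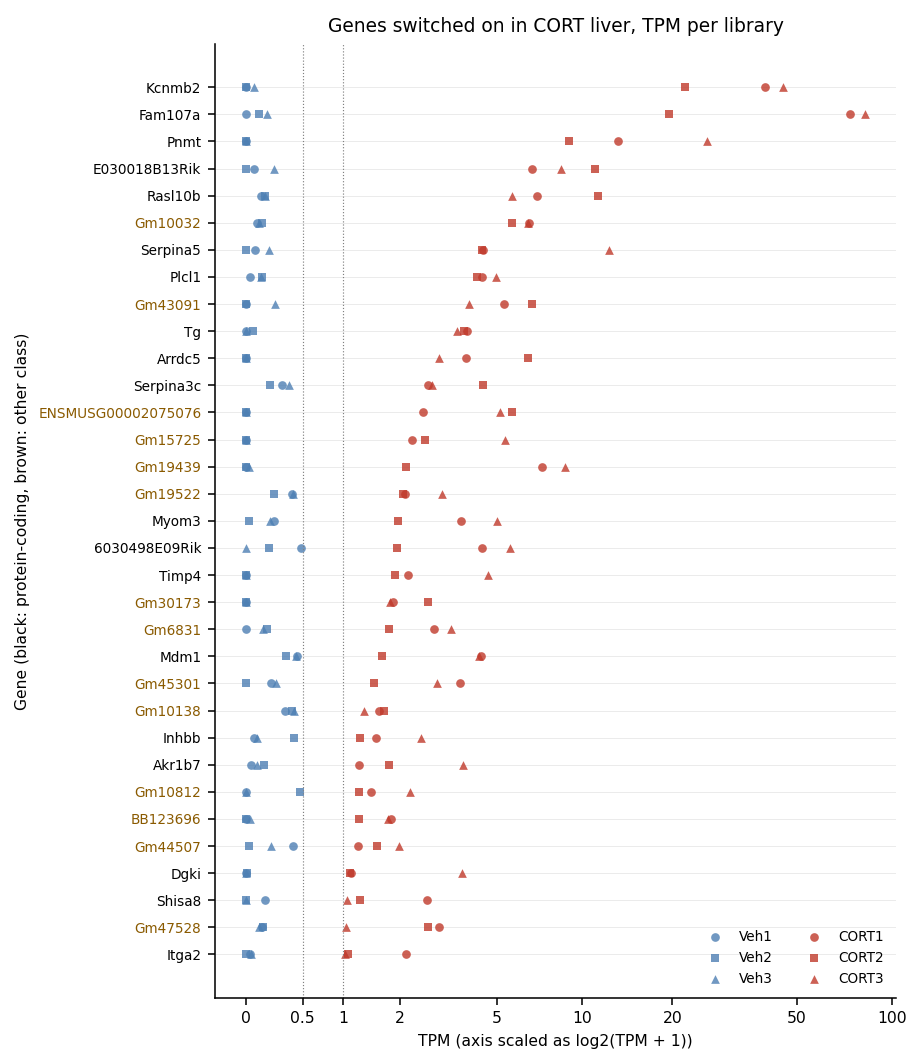
TPM of 33 of the 34 members chosen in liver (rows, ordered by their lowest CORT value) in the 3 Veh (blue) and 3 CORT (red) libraries, one mark shape per replicate number, on an axis scaled as log2(TPM + 1). Dotted lines mark the limits of 0.5 and 1 TPM, and Kcnmb2, Fam107a and Pnmt lie furthest to the right, with CORT values of at least 22.0, 19.6 and 9.01 TPM.

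Among the liver members, Kcnmb2 and Fam107a had the highest levels. Kcnmb2 encodes an auxiliary beta subunit of the large-conductance calcium-activated potassium channel. It was at 0, 0 and 0.06 TPM in the Veh livers and at 39.7, 22.0 and 45.2 TPM in the CORT livers. Fam107a encodes an actin-binding protein known from the brain's response to stress. Its levels were 0, 0.1 and 0.16 TPM in Veh and 73.5, 19.6 and 82.2 TPM in CORT. CORT2 was the lowest of the CORT livers for both genes, and it was the lowest for 18 of the 34 members. The members' summed level was 228 TPM in CORT1, 164 TPM in CORT2 and 276 TPM in CORT3, against 3.26 to 4.14 TPM in the Veh livers.

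Pnmt, the only gene chosen in both tissues, encodes the enzyme that turns noradrenaline into adrenaline in the adrenal medulla. Every Veh liver listed it at 0, and it was at 13.3, 9.01 and 25.9 TPM in the CORT livers. In duodenum it was at 0, 0 and 0.05 TPM in Veh and at 1.56, 1.48 and 5.54 TPM in CORT. CORT3 was thus the highest library in each tissue. That the groups did not overlap follows from the rule. Th and Dbh, which encode 2 of the enzymes that act before Pnmt in the same pathway and are themselves no members, were listed at 0 in all 6 liver libraries. Over the 6 adrenal medulla markers the summed level was 0.68 to 1.25 TPM in Veh livers and 1.37 to 2.64 TPM in CORT livers. In duodenum, which holds enteroendocrine cells, it was 124 to 138 TPM in Veh and 114 to 195 TPM in CORT.

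Several liver members are secreted or act on secreted proteins. Serpina5, the protease inhibitor also called protein C inhibitor, was at 0.07, 0 and 0.18 TPM in Veh and at 4.45, 4.4 and 12.3 TPM in CORT. Serpina3c, a member of a family of serine protease inhibitors so alike that reads may be shared among them, was at 0.29, 0.19 and 0.36 TPM in Veh and 2.68, 4.42 and 2.77 TPM in CORT. Timp4, an inhibitor of matrix metalloproteinases, was at 0 in the 3 Veh livers and at 2.19, 1.89 and 4.63 TPM in CORT. CORT3 held the highest level of Serpina5 and Timp4, and CORT2 that of Serpina3c.

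Tg encodes thyroglobulin, the precursor of thyroid hormone. In the Veh livers it was at 0, 0.05 and 0 TPM and in the CORT livers at 3.85, 3.75 and 3.52 TPM, the narrowest CORT spread of the liver members (highest over lowest 1.09). Of 6 thyroid markers, Slc5a5, Nkx2-1, Tshr and Duox2 were listed at 0 in all 6 livers, and the list summed to at most 0.02 TPM in Veh and 0.46 TPM in CORT. Inhbb, which encodes the beta B subunit of activin B and inhibin B, was at 0.06, 0.41 and 0.08 TPM in Veh and 1.54, 1.25 and 2.48 TPM in CORT.

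Enzymes and signalling proteins formed another share of the coding members in liver. Akr1b7, an aldo-keto reductase known from adrenal cortex and vas deferens, was at 0.04, 0.14 and 0.08 TPM in Veh and 1.24, 1.77 and 3.72 TPM in CORT. Of 8 adrenal cortex markers, Cyp11a1, Cyp11b1, Cyp11b2, Nr5a1 and Mc2r were at 0 in all 6 livers, and the list summed to between 0.44 and 0.92 TPM.
Plcl1, an inactive relative of phospholipase C, was at 0.03, 0.12 and 0.11 TPM in Veh and 4.4, 4.19 and 4.98 TPM in CORT. Rasl10b, a small Ras-like GTPase, was at 0.11, 0.15 and 0.15 TPM in Veh and 6.97, 11.3 and 5.68 TPM in CORT. Dgki, a diacylglycerol kinase, was at 0, 0.01 and 0 TPM in Veh and 1.12, 1.1 and 3.69 TPM in CORT. Levels of Plcl1 were close to each other in the 3 CORT livers, while Rasl10b was highest in CORT2 and Dgki in CORT3.
Arrdc5, a protein with an arrestin domain, was at 0 in all Veh livers and at 3.8, 6.49 and 2.96 TPM in CORT. Itga2, the alpha 2 chain of a collagen receptor, was at 0.03, 0 and 0.04 TPM in Veh and 2.14, 1.07 and 1.03 TPM in CORT. Shisa8, known from the regulation of glutamate receptors in neurons, was at 0.15, 0 and 0 TPM in Veh and 2.63, 1.25 and 1.06 TPM in CORT. Of these 3 genes only Arrdc5 passed 2 TPM in every CORT liver.
Myom3, a protein of the sarcomere's M band, was at 0.22, 0.02 and 0.19 TPM in Veh and 3.63, 1.96 and 5.02 TPM in CORT. Beside it, 7 skeletal muscle markers summed to between 0.82 and 1.13 TPM in CORT livers and between 0.9 and 8.25 TPM in Veh livers, with Ckm, Myh1, Myh4 and Tnnt3 at 0 in both groups. The summed level of that list was thus not higher in CORT. Mdm1, a microtubule-binding protein of centrioles, was at 0.44, 0.33 and 0.43 TPM in Veh and 4.36, 1.65 and 4.29 TPM in CORT. The predicted coding gene E030018B13Rik was at 0.06, 0 and 0.22 TPM in Veh and 6.69, 11.1 and 8.51 TPM in CORT, and 6030498E09Rik was at 0.48, 0.18 and 0 TPM in Veh and 4.41, 1.95 and 5.58 TPM in CORT.

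The 14 liver members that are not protein-coding had lower limits between 1.04 and 5.66 TPM in CORT. Gm10032 was the highest by this measure, at 0.08, 0.12 and 0.1 TPM in Veh and 6.57, 5.66 and 6.47 TPM in CORT. Gm43091 was at 0, 0 and 0.23 TPM in Veh and 5.3, 6.73 and 3.93 TPM in CORT. Gm19439 was at 0, 0 and 0.02 TPM in Veh and 7.29, 2.14 and 8.73 TPM in CORT. Of these 3 genes, Gm10032 varied least and Gm19439 most between the CORT livers. ENSMUSG00002075076, Gm15725 and Gm30173 were at 0 in every Veh liver and had lowest CORT values of 2.54, 2.27 and 1.79 TPM. For Gm19522, Gm6831, Gm45301, Gm10138, Gm10812, BB123696, Gm44507 and Gm47528 the lowest CORT value was between 1.04 and 2.07 TPM.

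**Figure D2:**
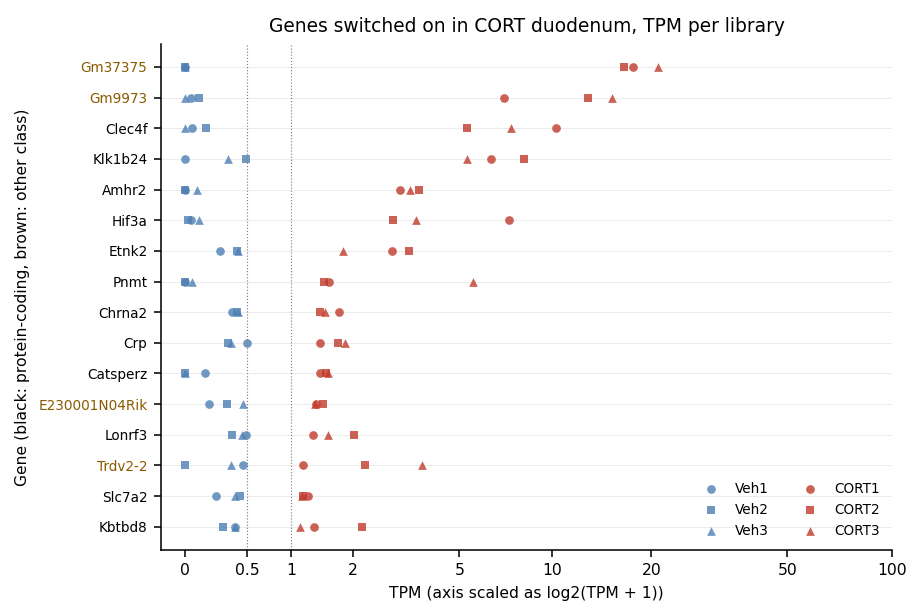
TPM of the 16 members chosen in duodenum (rows, ordered by their lowest CORT value) in the 3 Veh (blue) and 3 CORT (red) libraries, one mark shape per replicate number, on an axis scaled as log2(TPM + 1). Dotted lines mark 0.5 and 1 TPM, and Gm37375 stands alone at 16.6 to 21.0 TPM in CORT with all Veh libraries at 0.

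In the duodenum the leading member was Gm37375, a gene of the class "to be experimentally checked". The CORT libraries held 17.6, 16.6 and 21.0 TPM of it, while every Veh duodenum and every liver library listed it at 0. Gm9973, a pseudogene, was at 0.04, 0.1 and 0 TPM in Veh and 7.02, 12.9 and 15.3 TPM in CORT, and no liver library held more than 0.04 TPM of it. Reads of a pseudogene can be split with the gene it copies. The summed level of the 16 members was 67.0, 67.9 and 77.0 TPM in the CORT duodenum against 3.13 to 3.79 TPM in Veh, and no CORT library was the lowest for more than 6 members.

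Receptors formed the second group. Clec4f, a C-type lectin receptor known as a marker of Kupffer cells, the macrophages of the liver, was at 0.05, 0.15 and 0 TPM in the Veh duodenum and 10.3, 5.31 and 7.42 TPM in CORT. Vsig4, another gene that defines Kupffer cells, was listed at 0 in all 6 duodenum libraries, and the 7 Kupffer cell markers summed to 60.9 to 103 TPM in Veh and 78.7 to 106 TPM in CORT. C1qa, a complement gene of many macrophages, made up most of that sum, at 57.8, 87.8 and 94.6 TPM in Veh and 73.8, 87.9 and 96.3 TPM in CORT. Cd163, a macrophage scavenger receptor and one of the 7, was at 0.17, 0.47 and 0.51 TPM in Veh and 2.01, 4.06 and 3.73 TPM in CORT, just past the limit on Veh. The groups overlapped for the other 5 markers above 0, Adgre1 (2.71 to 6.32 TPM in Veh and 2.48 to 4.98 TPM in CORT) and Timd4 (0.22 to 1.76 and 0.31 to 1.42 TPM) among them. The part of macrophages in the level of Clec4f was not tested. Amhr2, the type II receptor of anti-Müllerian hormone, was at 0, 0 and 0.08 TPM in Veh and 3.08, 3.61 and 3.35 TPM in CORT. The 6 gonad markers summed to 0.29 to 0.81 TPM in Veh and 0.03 to 0.39 TPM in CORT, with Fshr, Lhcgr and Cyp19a1 at 0 in both groups. The CORT levels of Amhr2 were close together and far from Veh. Chrna2, a nicotinic acetylcholine receptor subunit, was at 0.36, 0.41 and 0.42 TPM in Veh and 1.73, 1.42 and 1.5 TPM in CORT. Trdv2-2, a variable segment of the T cell receptor delta chain, was at 0.46, 0 and 0.35 TPM in Veh and 1.16, 2.25 and 3.7 TPM in CORT, and Cd3e, a gene of all T cells, was at 9.95, 16.3 and 15.9 TPM in Veh and 10.8, 11.5 and 11.3 TPM in CORT.

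Members of other kinds followed in the duodenum. Hif3a, an oxygen-regulated transcription factor subunit, was at 0.04, 0.02 and 0.1 TPM in Veh and 7.27, 2.9 and 3.53 TPM in CORT. Klk1b24, a kallikrein from a cluster of closely similar genes that may share reads, was at 0, 0.49 and 0.33 TPM in Veh and 6.35, 8.16 and 5.31 TPM in CORT. Etnk2, an ethanolamine kinase of phospholipid synthesis, was at 0.26, 0.41 and 0.42 TPM in Veh and 2.87, 3.32 and 1.81 TPM in CORT. The 5 salivary gland markers found, listed beside Klk1b24 because that gland is rich in kallikreins, summed to 25.7 to 34.8 TPM in Veh and 33.9 to 45.3 TPM in CORT, with Smgc, Prol1 and Dcpp1 at 0. CORT1 held the highest level of Hif3a, and CORT2 that of Klk1b24 and of Etnk2.
Crp, the pentraxin C-reactive protein, was at 0.5, 0.33 and 0.35 TPM in Veh and 1.42, 1.71 and 1.84 TPM in CORT. Slc7a2, a transporter of cationic amino acids, was at 0.23, 0.43 and 0.39 TPM in Veh and 1.24, 1.17 and 1.15 TPM in CORT. Catsperz, a subunit of the sperm calcium channel, was at 0.14, 0 and 0 TPM in Veh and 1.41, 1.51 and 1.54 TPM in CORT. All 3 stayed under 2 TPM, with little spread between CORT libraries.
Lonrf3, a RING finger protein, was at 0.49, 0.36 and 0.45 TPM in Veh and 1.31, 2.01 and 1.55 TPM in CORT. Kbtbd8, an adaptor of a cullin ubiquitin ligase, was at 0.39, 0.28 and 0.39 TPM in Veh and 1.32, 2.17 and 1.12 TPM in CORT. The long non-coding E230001N04Rik was at 0.17, 0.32 and 0.46 TPM in Veh and 1.36, 1.47 and 1.34 TPM in CORT.

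Members just inside and just outside the limits had similar values. In liver, Itga2 and Gm47528 had the lowest CORT minima, 1.03 and 1.04 TPM, and 6030498E09Rik and Gm10812 the highest Veh maxima, 0.48 and 0.47 TPM. Cyp2c69 and Slc10a6 were left out with lowest CORT values of 0.96 and 0.95 TPM, and Ttll8 and Ms4a8a with highest Veh values of 0.52 and 0.53 TPM, Ttll8 at 4.11 TPM or more in CORT. In duodenum, Kbtbd8 and Slc7a2 had CORT minima of 1.12 and 1.15 TPM, and Crp and Lonrf3 had Veh maxima of 0.5 and 0.49 TPM. These last members sat at the edge of the rule. Outside lay Sec14l4 and Zfp273, both with a lowest CORT value of 0.98 TPM, and Cd163 and Usp35, with highest Veh values of 0.51 and 0.54 TPM. Applied to 5 of the 6 libraries at a time, the rule took 40 to 72 genes in liver and 24 to 36 in duodenum. Leaving libraries out can only keep or add genes, since the rule takes the highest Veh and the lowest CORT value. The counts could thus not fall below those with all libraries. The libraries whose omission moved the count by over 1.5 times were Veh2 (72 genes), CORT1 (52) and CORT2 (56) in liver, and Veh1 (26), Veh2 (29), CORT1 (27), CORT2 (36) and CORT3 (28) in duodenum. Without both Veh2 and Veh3, the duodenum libraries with the pancreatic transcripts, it took 72.

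The question of whether a gene switched on in one tissue also responded in the other was answered on values the rule did not use. Of the 34 liver members, 8 were listed at 0 in all 6 duodenum libraries (Serpina5, Arrdc5, 6030498E09Rik, Gm15725, Gm43091, Gm44507, Gm45301 and ENSMUSG00002075076). Of the 25 others besides Pnmt, every CORT value lay above every Veh value in 9 (36.0%), against 8.56% of the 24876 genes above 0 in a duodenum library. Among the 9 genes were Akr1b7, Fam107a, Gm47528, Rasl10b, Inhbb, Timp4, Gm19439 and BB123696. Gm47528 overlaps Apoa4, which was at 7906 to 12570 TPM in Veh duodenum and 16881.5 to 21545 TPM in CORT duodenum. The part of Apoa4 reads in the level of Gm47528 was not tested. Every CORT value lay below every Veh value in 2 of the 25, Tg and Gm6831, against 9.06% of all such genes. Of the 16 duodenum members, Gm37375 and Trdv2-2 were at 0 in all livers. Of the 13 others besides Pnmt, CORT lay above Veh without overlap in 6 (46.2%), against 12.6% of 23316 genes in liver, and below it in 0, against 7.70%. The 6 genes were Lonrf3, Chrna2, Hif3a, Etnk2, Catsperz and E230001N04Rik. The members of such a list share libraries and are not independent of each other.

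**Figure D3:**
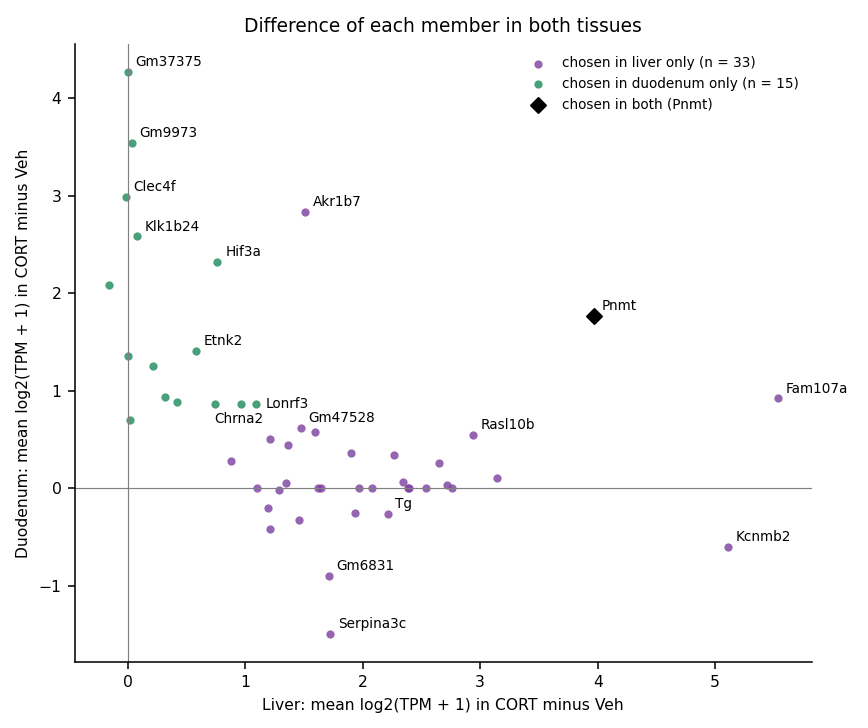
Difference of mean log2(TPM + 1), CORT minus Veh, in liver (x axis) and in duodenum (y axis) for each of the 49 members, coloured by the tissue that chose them. Most members lie close to the axis of the other tissue, and Pnmt and Akr1b7 lie well above 0 on both. Serpina3c, Gm6831 and Kcnmb2 lie below 0 in the duodenum, Serpina3c and Kcnmb2 through the single library Veh1.

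The formal test in the other tissue was limma on log2(TPM + 1) over every gene whose group mean reached 1 TPM in CORT or in Veh, where a call needed a Benjamini-Hochberg adjusted p no higher than 0.05 together with a change of more than 1.5 times. In duodenum 1.23% of 13607 genes were called higher and 0.919% lower. Pnmt was left out of these counts, since the rule used its values in both tissues. The level in duodenum let 9 of the other 33 liver members enter the test, and 1 was called higher and 0 lower. At an unadjusted p under 0.05 in limma, 3 of the 9 were higher and 0 lower, beside 8.72% and 10.5% of all tested genes. Fam107a, among the 3, passed the filter only through its CORT mean (1.67 TPM, beside 0.43 TPM in Veh), as did Gm10138, which was not among them. Kcnmb2, Gm6831 and Serpina3c passed it only through their Veh means. The gene called was Akr1b7, which the duodenum expressed strongly without CORT. It was at 181, 47.6 and 162 TPM in Veh and at 714, 713 and 1017 TPM in CORT, 2.83 higher on the log2 scale (SE 0.49, limma adjusted p = 0.0397). The call was lost without CORT1, CORT2, CORT3 or Veh3 (limma adjusted p between 0.0991 and 0.112) and without Veh2 and Veh3 together (limma adjusted p = 0.161), where the lone Veh library left 2 of 13576 genes called higher in all.
Fam107a was at 0.41, 0.07 and 0.82 TPM in Veh duodenum and at 2.19, 1.45 and 1.38 TPM in CORT, and this log2 difference of 0.92 (SE 0.27) did not pass (limma adjusted p = 0.137). Kcnmb2 was at 2.99, 0 and 0.07 TPM in Veh and at 0, 0.13 and 0.07 TPM in CORT, so that only Veh1 was above 0.13 TPM. Serpina3c had the same single high library, at 41.9, 0.05 and 0.19 TPM in Veh and 0.3, 0.38 and 0.34 TPM in CORT. Neither gene was called with all libraries (limma adjusted p = 0.568 and 0.572). The other tested liver members without a call were Gm47528 (log2 fold change 0.62), Mdm1 (0.58), Gm10138 (0.28), Itga2 (-0.42) and Gm6831 (-0.90).

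In liver, limma called 4.91% of 11699 genes higher and 2.01% lower. Median-ratio scaling of the libraries turned the split of 575 higher and 235 lower genes into 543 and 468. Besides Pnmt, 6 of the other 15 duodenum members entered the test there, and 1, Lonrf3, was called higher and 0 lower. At an unadjusted p under 0.05 in limma, 3 of the 6 were higher and 0 lower, beside 16.9% and 9.06% of all tested genes. Lonrf3 and Chrna2, both among the 3, passed the filter only through their CORT means. These were 2.30 and 2.65 TPM, beside Veh means of 0.55 and 0.74 TPM, so the filter itself favoured a higher CORT level in these genes. Lonrf3 was at 0.53, 0.47 and 0.64 TPM in Veh livers and at 2.5, 1.98 and 2.41 TPM in CORT livers, 1.09 higher on the log2 scale (SE 0.18, limma adjusted p = 0.0184). The limma adjusted p was between 0.0511 and 0.0877 without CORT1, CORT3, Veh1 or Veh3. Chrna2 was at 0.67, 0.66 and 0.89 TPM in Veh and 4.04, 2.96 and 0.96 TPM in CORT and was not called (log2 fold change 0.97, limma adjusted p = 0.142), although without CORT3 it was (log2 fold change 1.36, limma adjusted p = 0.0255).

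Some members were already expressed in the Veh libraries of the tissue that did not choose them. Of the duodenum members, 4 were at 1 TPM or more in every Veh liver, and they are Clec4f, Etnk2, Crp and Slc7a2. Crp was at 294, 214 and 212 TPM in Veh livers and 295, 274 and 319 TPM in CORT livers (log2 fold change 0.32, limma adjusted p = 0.274). Etnk2 was at 135, 143 and 191 TPM in Veh and 209, 228 and 259 TPM in CORT (log2 fold change 0.58, limma adjusted p = 0.0892), without overlap between the groups. Neither fold passed the test.
Clec4f was at 41.8, 39.9 and 56.2 TPM in Veh livers and 29.99, 38.5 and 77.6 TPM in CORT livers (log2 fold change -0.02, limma adjusted p = 0.977). Slc7a2 was at 38.8, 99.8 and 57.5 TPM in Veh livers and 66.0, 42.1 and 83.1 TPM in CORT livers (log2 fold change 0.02, limma adjusted p = 0.981). For both genes the CORT and Veh livers overlapped, and the sign of the fold change turned in some of the other settings.
These genes were thus at levels in the Veh liver well above those they reached in the CORT duodenum, although the tissues come from separate tables and were not tested against each other. In the opposite direction, Akr1b7, Gm47528, Mdm1 and Itga2 were the 4 liver members at 1 TPM or more in every Veh duodenum. Gm47528 was at 4.5, 2.74 and 5.09 TPM in Veh and 7.39, 5.38 and 7.42 TPM in CORT there, and Itga2 at 2.46, 1.87 and 2.82 TPM in Veh and 1.07, 1.9 and 1.65 TPM in CORT. Mdm1 was at 2.23, 1.34 and 1.78 TPM in Veh and 3.54, 4.18 and 1.98 TPM in CORT.

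The genes that lie next to the members in the genome were then examined, since many of the non-coding members have a named neighbour. The nearest protein-coding gene that was no member was taken from gene order on GRCm38 for 33 liver members and all 16 duodenum members. Of the liver neighbours, 22 could be tested, and limma called 8 higher and 0 lower in CORT livers, a share of 36.4% beside the 4.91% over all genes. At an unadjusted p under 0.05 it was 11 higher and 1 lower (Klf13) of the 22, where 16.9% and 9.06% of all tested liver genes were. Beside the 13 non-coding members with a neighbour, 7 of 10 tested neighbours were higher, and beside the 20 coding members it was 1 of 12. In duodenum 1 of 8 tested neighbours was higher in limma (12.5%, beside 1.23%) and 0 lower, or 3 and 1 (Pgap3) at an unadjusted p under 0.05, where 8.72% and 10.5% of all tested duodenum genes were. The methods name an orientation mode for the alignment, but whether the counting separated the 2 strands is not given in the sources used here. For the 9 liver members that overlap their neighbour, 6 of them non-coding, the reads of the pair may not be separable. The called neighbours Crybg1, Lrrc58, Ivns1abp, Por and Apoa4 overlap their member, Lrrc58 on the same strand. Their values may thus not be independent of the rule. Only Plin3, Foxo1 and Ppp1r3b were called without an overlap.

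**Figure D4:**
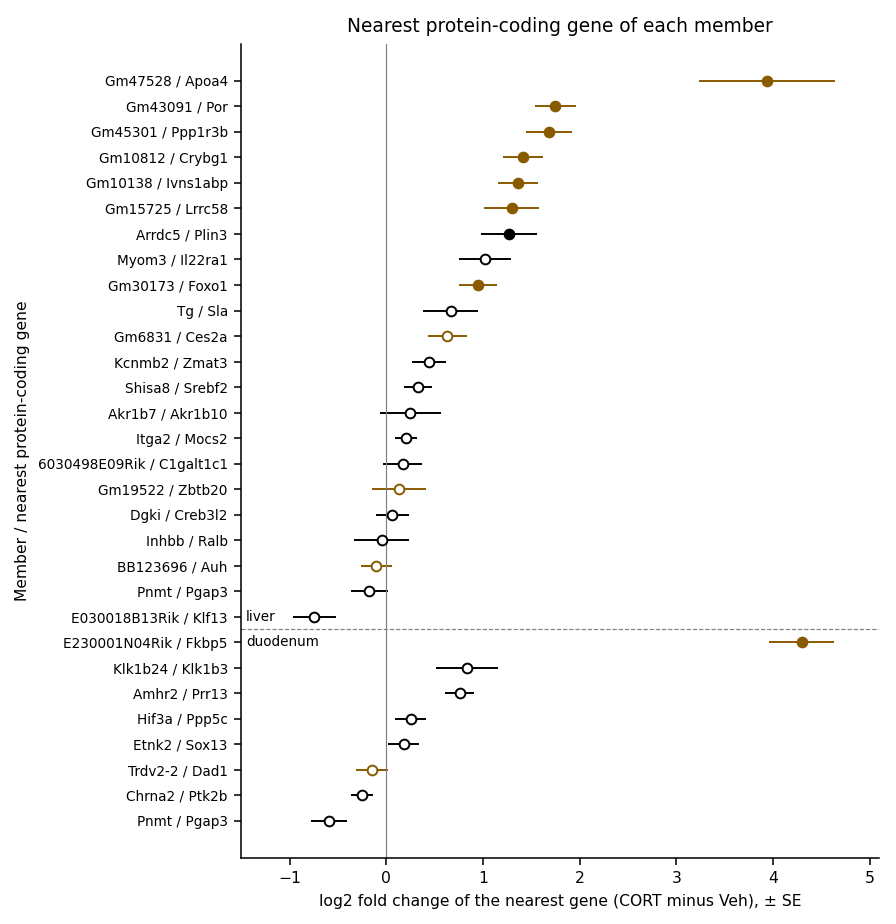
log2 fold change (CORT minus Veh, limma) of the nearest protein-coding gene of each member, with standard error bars, for 22 liver members and 8 duodenum members whose neighbour was tested. Brown marks stand for members outside the protein-coding class, the T cell receptor segment Trdv2-2 included, and black marks for protein-coding ones. Filled marks are called genes, and 7 of the 8 called liver neighbours lie beside a non-coding member.

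Por, Apoa4 and Ivns1abp overlap non-coding members. Por encodes the reductase that passes electrons to cytochrome P450 enzymes and overlaps Gm43091 on the opposite strand. It was at 127, 221 and 196 TPM in Veh livers and 599, 561 and 628 TPM in CORT livers (log2 fold change 1.75, SE 0.21, limma adjusted p = 0.00702). Apoa4, an apolipoprotein of fat transport, overlaps Gm47528 and rose from 76.2, 172 and 117 TPM to 2691, 3840 and 555 TPM (log2 fold change 3.94, SE 0.70, limma adjusted p = 0.0239). CORT3 was the lowest of the CORT livers for both Apoa4 and Gm47528 (2.98, 2.67 and 1.04 TPM). Ivns1abp, an actin-associated kelch protein, overlaps Gm10138 and was at 19.1, 32.9 and 29.96 TPM in Veh and 75.1, 65.9 and 68.9 TPM in CORT (limma adjusted p = 0.0149).
Crybg1 overlaps the pseudogene Gm10812 and Lrrc58 overlaps the pseudogene Gm15725. Their log2 fold changes in liver were 1.41 and 1.30 (limma adjusted p = 0.0120 and 0.0431). Ppp1r3b, a subunit that directs protein phosphatase 1 to glycogen, lies next to Gm45301 and went from 33.0, 22.1 and 43.3 TPM to 119, 95.7 and 98.6 TPM (log2 fold change 1.68, limma adjusted p = 0.0120). Foxo1, a transcription factor of fasting metabolism, lies next to Gm30173, whose promoter window held the response element. Foxo1, also a gene of the glucocorticoid list, went from 3.23, 4.17 and 4.64 TPM to 10.1, 6.59 and 9.57 TPM (log2 fold change 0.95, limma adjusted p = 0.0357). Plin3, a lipid droplet coat protein next to Arrdc5, was the only called neighbour of a coding member (log2 fold change 1.27, limma adjusted p = 0.0468). The calls of Por and Ppp1r3b were kept with each liver library left out, those of Crybg1 and Ivns1abp were lost without CORT1, and that of Apoa4 was lost without CORT1, CORT2, Veh1 or Veh3. Those of Lrrc58 and Foxo1 were lost without any library but CORT2, and that of Plin3 without any but Veh2. Without CORT1, Il22ra1, the neighbour of Myom3, was called (log2 fold change 1.29, limma adjusted p = 0.0493), which it was not with all libraries. The count of called neighbours was then 3 without CORT1, 5 without CORT3, and 4 without Veh1 or without Veh3.

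In the duodenum the called neighbour was Fkbp5, a co-chaperone of the glucocorticoid receptor and an established target of it, which lies next to E230001N04Rik. It went from 14.0, 8.68 and 23.3 TPM in Veh to 379, 281 and 252 TPM in CORT (log2 fold change 4.30, SE 0.34, limma adjusted p = 0.00450). In the liver, which did not choose E230001N04Rik, this long non-coding RNA was at 0, 0 and 0.35 TPM in Veh and 1.13, 0.77 and 0.67 TPM in CORT, and Fkbp5 went from 7.14, 12.7 and 19.5 TPM to 273, 249 and 221 TPM (log2 fold change 4.23, limma adjusted p = 0.00178). Both genes were thus higher in every CORT library than in any Veh library of each tissue. For E230001N04Rik in duodenum this follows from the rule. Without the duodenum libraries Veh2 and Veh3 together, where 2 of 13576 genes were called higher in all, Fkbp5 was not called (log2 fold change 4.32, limma adjusted p = 0.0566).

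A list of glucocorticoid receptor targets and pathway genes, chosen with earlier results of these data known, was compared with the members. No gene of the list was itself a member in either tissue. Because the list was written by hand with those results known, this absence does not show whether members are receptor targets. Of the 53 found by symbol, 2 in liver and 4 in duodenum had a Veh maximum of 0.5 TPM or less. In liver 16 of 51 tested genes were called higher (31.4%) and 2 lower, beside 4.91% and 2.01% of all tested genes. The median log2 fold change was 0.95, beside 0.08 over all genes. The largest folds were those of the iron-binding protein Lcn2 (log2 fold change 6.12), the cell cycle inhibitor Cdkn1a (5.72), Gadd45b (4.66) and Fkbp5, all of them expressed to some extent in Veh livers, such as Cdkn1a at 0.66, 2 and 1.65 TPM and 147, 98.1 and 130 TPM in CORT. The other liver genes called higher were Fgf21, Mt2, Mt1, Ddit4, Zbtb16, Tdo2, Dusp1, Il6ra, Cavin2, Sgk1, Pik3r1 and Foxo1, and Nr3c2, the mineralocorticoid receptor, and Scnn1a were lower.
In duodenum 12 of 48 tested genes were called higher (25%) and 1 lower, beside 1.23% and 0.919% of all tested genes. The median was 0.56, beside -0.01 over all genes. The genes called higher were Lcn2 (log2 fold change 4.36), Fkbp5, Angptl4 (3.50), Pdk4 (3.03), Zbtb16 (2.94), G6pc (2.73), Sult1a1, Tsc22d3, Hsd11b2, Gadd45b, Glul and Mertk. The lower gene was Nr3c2. In both tissues 4 genes were called higher: Fkbp5, Lcn2, Zbtb16 and Gadd45b. Zbtb16, a transcriptional repressor, came close to the members in duodenum, at 0.16, 0.23 and 0.84 TPM in Veh and 13.3, 9.43 and 7.01 TPM in CORT. With a library left out, the calls of Glul and Nr3c2 in duodenum and of Nr3c2 and Scnn1a in liver were kept in 0 of 6 fits. The liver count of genes called higher fell to 8 without CORT1 or without Veh1 and to 9 without CORT3. The duodenum count fell to 5 without CORT1, CORT2 or Veh2, to 7 without CORT3, and to 0 without Veh2 and Veh3 together, where limma called 2 of 13576 genes in all higher.

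**Figure D5:**
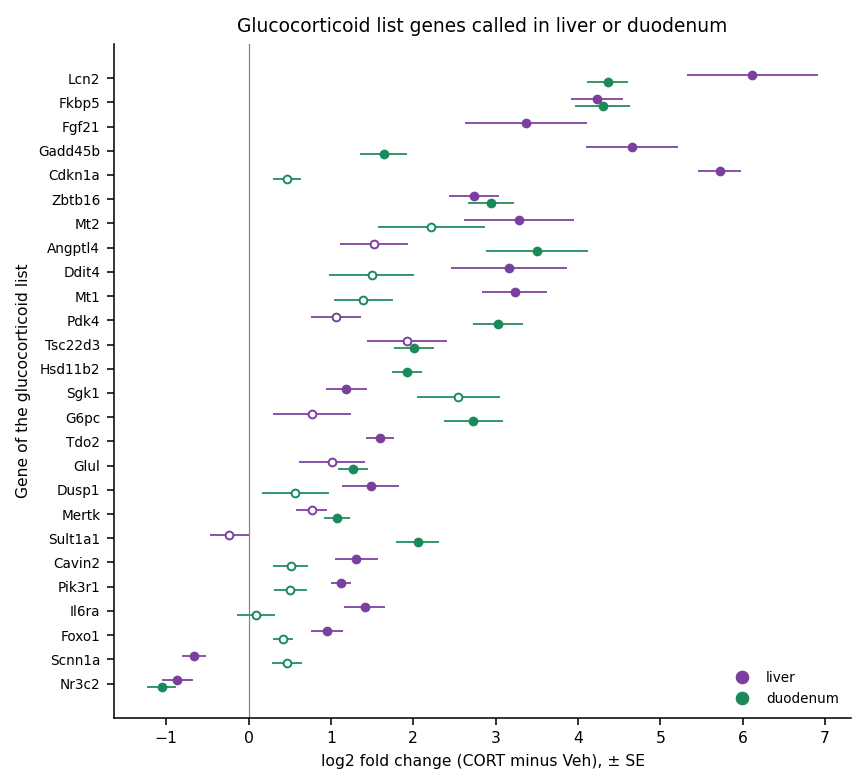
log2 fold change (CORT minus Veh, limma) with standard error of the genes of the glucocorticoid list that were called in at least 1 tissue, in liver (purple) and duodenum (green). Filled marks are called in that tissue, and Lcn2, Fkbp5, Gadd45b and Zbtb16 are filled and above 0 in both.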

How the data were processed

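The authors made TruSeq libraries from total RNA, used SeqPrep and Sickle to trim the paired reads, HISAT2 to align them, StringTie to assemble transcripts and RSEM to quantify them. Per gene and library, the authors deposited TPM, on GRCm39 per the labels, and the annotation release is not given in the sources used here. Members and lists were chosen with earlier results of these data known. Groups follow the sample titles, and the 3 samples of a group are biological replicates.

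From the TPM tables the rule was applied to every row. log2(TPM + 1) was fitted per tissue with limma 3.58.1 in R 4.3.3 (eBayes with a trend), for genes whose mean reached 1 TPM in CORT or in Veh, with Benjamini-Hochberg adjustment over all tested genes. Adding 1 makes the fold changes of low genes too small, depth is unknown, and an exact permutation test of 3 against 3 libraries cannot give a two-sided p below 0.1. On simulated data the fit recovered 162 of 200 changed genes in liver, among 11699, and 170 of 200 in duodenum, among 13607, with 12 and 13 false calls. Classes came from GENCODE vM21 by identifier. Its build differs from that of the TPM tables, so it gave no coordinates, and gene order on GRCm38 served only to name neighbours, a use added after the data were seen. Named genes were all members by class, those called in the other tissue, those at the limits and the called genes of the list. Alternatives were a pseudocount of 0.1, other filters, median-ratio scaling, a replicate block, other limits of the rule and each library left out. The values of 1 liver member are not reported here, though it is counted.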

Additional observations from a re-analysis of the deposited data

Results flagged for a closer look

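Tg and Gm6831, both switched on in liver, lay lower in CORT duodenum, where every CORT library was below every Veh library. This held for 2 of the 25 liver members above 0 there besides Pnmt, beside 9.06% of all such duodenum genes. Tg was at 0.44, 0.44 and 0.47 TPM in Veh duodenum and 0.29, 0.23 and 0.1 TPM in CORT, a difference of -0.27 in mean log2(TPM + 1) against 2.21 in liver. Gm6831, a pseudogene whose reads can be split with other copies, was at 0.21, 2.4 and 0.88 TPM in Veh duodenum and 0.08, 0 and 0.1 TPM in CORT, a difference of -0.90 against 1.71 in liver. In duodenum Tg was under the filter on low values and not tested, and Gm6831 was not called (limma adjusted p = 0.267). The difference between tissues was not tested for either gene.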

How the results depend on the processing

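With a lowest CORT value of at least 2 TPM the rule took 16 genes in liver and 6 in duodenum, and with a highest Veh value of at most 0.25 TPM it took 7 in duodenum. Without duodenum Veh2 and Veh3, a setting chosen after seeing the data, it took 72, and in that setting 0 liver members, 0 list genes and 0 neighbours were called higher in duodenum. With that lone Veh library limma called 2 of 13576 genes higher in all, so these zeros say little. With each library left out the rule took 40 to 72 genes in liver and 24 to 36 in duodenum, and leaving libraries out could only keep or add genes. At limits of 1 TPM for Veh and 2 TPM for CORT, 0 genes were shared by the tissues. Counts of called members here include Pnmt, whose values the rule used in both tissues. In the fits with a library left out, 0 to 1 liver members were called higher in duodenum and 1 to 2 duodenum members in liver, 8 to 16 and 5 to 10 list genes were higher in liver and duodenum, and 3 to 6 and 1 to 1 neighbours. With no filter on low values the counts were 0 liver members in duodenum, 8 and 5 list genes in liver and duodenum, and 5 liver neighbours, with Syn2 newly called. A pseudocount of 0.1 gave 2 liver members called in duodenum, Akr1b7 and Pnmt, of which Akr1b7 alone is outside the rule. The 6-letter site in place of the response element was present for 40% of members. Same-numbered samples did not deviate together (correlations of -0.125 to 0.0364 in liver and -0.00137 to 0.0788 in duodenum), and with a replicate block 0 liver members, 1 duodenum member (Pnmt, while Lonrf3 had a limma adjusted p of 0.0741), 4 list genes in duodenum and 3 liver neighbours were called higher. Slc7a2 in liver turned to -0.076 with median-ratio scaling, and with a library left out it ran from -0.30 to 0.37 and Clec4f from -0.41 to 0.26. Of the other comparisons of single genes with the alternatives, 416 kept their direction and side of the threshold, 170 lost a call and 2 gained one.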

Other observations

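The opposite rule, with a highest CORT value of 0.5 TPM or less and a lowest Veh value of 1 TPM or more, took 11 genes in liver and 24 in duodenum. Shank2, a scaffold protein of synapses and epithelial cells, was the only gene it took in both tissues. It was at 1.02, 1.37 and 1.06 TPM in Veh livers and 0.43, 0.27 and 0.3 TPM in CORT livers, and at 1.65, 1.1 and 1.43 TPM in Veh duodenum and 0.23, 0.35 and 0.36 TPM in CORT duodenum. In duodenum the list held Cela2a, Cela3b, Pnlip, Cpa1 and Prss2, enzymes of the exocrine pancreas, of which Prss2 went from 2.29, 3289 and 2724 TPM under Veh to 0, 0.1 and 0 TPM under CORT. Try4, Try5, Pla2g1b and 2210010C04Rik were also on it and were likewise far higher in Veh2 and Veh3 than in Veh1. The list also held 5 genes of the class of T cell receptor or immunoglobulin segments, besides Igkv4-77, which is classed as a pseudogene. In liver, ENSMUSG00002075130, a gene with no symbol in the table, was at 11.2, 11.4 and 11.5 TPM in Veh and listed at 0 in all 3 CORT libraries. These genes were chosen by their own values and carry no test.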
